A study of Mus musculus with 18 samples.

Results

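Ankrd1 and 8 genes of the Hippo-YAP pathway (Yap1, Wwtr1, Tead1, Tead2, Tead4, Lats1, Lats2 and Amotl2) were examined in clones of mouse bone marrow stromal cells. The members are all probe sets of the MG_U74Av2, MG_U74Bv2 and MG_U74Cv2 arrays to which the platform annotation gives 1 gene symbol equal to one of these 9 names, which came to 23 of 36701 probe sets, for 9 of 15964 genes named by a single symbol. The set was chosen by the difference of Ankrd1 between these same arrays, with the pathway genes added around it. The members' differences are therefore given as a description, with no p-value. Where a member is said to be called or past the threshold, this describes how the fit over all probe sets sorted it and supports nothing about it. CD34+ clones gave 3 RNAs and CD34- clones another 3, and each of these 6 was hybridised to every chip type (18 arrays). Both groups came from adult mouse bone marrow, were grown out of colonies that each began with a single cell, in DMEM and fetal bovine serum, and were checked for CD34 by flow cytometry. The labels give no strain, treatment or time for either group, nor how many clones or cultures stand behind the 3 RNAs of each. The measured spread may therefore be technical. The effects of the individual clone and of CD34 status cannot be told apart.

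The Hippo pathway is a kinase cascade that holds back cell growth when cells are crowded or under low tension. Lats1 and Lats2 encode its end kinases, which phosphorylate the co-activators YAP (Yap1) and TAZ (Wwtr1) and keep them in the cytoplasm, where proteins such as angiomotin-like 2 (Amotl2) also bind them. In the nucleus, YAP and TAZ have no DNA-binding domain of their own and act through the TEAD factors, which bind the letters GGAATG, and the genes they switch on include Ankrd1, Ccn1, Ccn2 and, as feedback, Amotl2 and Lats2. The Ankrd1 protein (CARP) is a muscle ankyrin repeat protein that sits with titin in the sarcomere of heart and skeletal muscle and also enters the nucleus. Much of the control of YAP and TAZ lies in phosphorylation and location, which RNA arrays do not measure.

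Signals below are deposited intensities after quantile normalization of the 6 arrays of a chip type. Each difference is on the log2(signal + offset) scale, CD34+ minus CD34-, with the standard error (SE) from limma and 3 RNAs in each group. A probe set was tested where it was brighter than the 40th percentile of its array on at least 3 of 6 arrays, and was called at a Benjamini-Hochberg adjusted p under 0.05. Levels are not compared between probe sets, since probes differ in brightness for the same amount of RNA. Because the RNA came from bulk cultures, fewer cells expressing a gene and less RNA per cell cannot be told apart.

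The labels were checked with Cd34 itself. Its probe set 160358_at had signals of 937.9, 787.3 and 918.7 in the CD34+ RNAs, against 171.5, 59.92 and 128.3 in the CD34- RNAs. The stromal identity was borne out only in part by its markers. Cxcl12, the niche chemokine of marrow stroma, was bright in both groups, with 918.7, 994.1 and 913.4 for 100112_at in CD34+ RNAs and 3031, 2771 and 3206 in CD34- RNAs (log2 difference -1.62, limma adjusted p = 6.62e-05). Another Cxcl12 probe set, 105704_at on MG_U74Bv2, overlapped (log2 difference 0.09, limma adjusted p = 0.846). The markers Itgb1, Eng, Cd44, Pdgfra, Pdgfrb, Vcam1 and Alcam had a probe set brighter than the filter on all 6 arrays. Nt5e by 93202_at exceeded the filter on fewer. Thy1 and Lepr, which are also used as stromal markers, were too dim to be tested on any chip type. Of the blood cell markers, the pan-leukocyte gene Ptprc stayed between 2.026 and 28.93 over its 3 probe sets and was not tested. Lyz2, Itgam, Mpo and Cd3e were also too dim to be tested by any probe set, while others were brighter in both groups. Cd14, a monocyte gene, had 1981, 1731 and 1852 in CD34+ RNAs and 1790, 2492 and 1509 in CD34- RNAs. Csf1r by 161832_r_at lay between 611.5 and 786.1 in CD34+ RNAs and between 626.8 and 758.6 in CD34- RNAs. By its other probe set, 104354_at, it lay between 190.3 and 228 in CD34+ and between 149.3 and 278.9 in CD34- RNAs. Elane by 100755_at lay between 340.6 and 504.5 in CD34+ and between 488.2 and 602.4 in CD34- RNAs. Elane 171479_at was too dim to be tested. None of the 6 tested probe sets of the list was called or had an unadjusted p under 0.05 in limma. The summed signal of the blood cell list on MG_U74Av2 was 3732 to 4579 in CD34+ RNAs and 3666 to 4846 in CD34- RNAs.

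Of the 23 member probe sets, 17 passed the filter on dim signal and all 9 genes kept at least 1. None of them passed through 1 group alone. The other 6 probe sets (1 of Yap1, 3 of Tead1 and 2 of Tead4) were not tested. On MG_U74Av2, 1 of the 9 tested member probe sets was called higher (Ankrd1) and 1 lower (Yap1), where 14.9% of all tested probe sets of that chip type were called, 8.21% higher and 6.69% lower. No member was called among 5 on MG_U74Bv2 and 3 on MG_U74Cv2, where the shares of all tested probe sets were 1.09% and 0.0936%. The CD34+ and CD34- signals did not overlap in 6 of the 17, 4 higher and 2 lower, beside 23.9% of all tested probe sets, 13.0% higher and 10.9% lower. The median log2 difference of the 17 was 0.02, beside 0 for all tested probe sets.

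**Figure D1:**
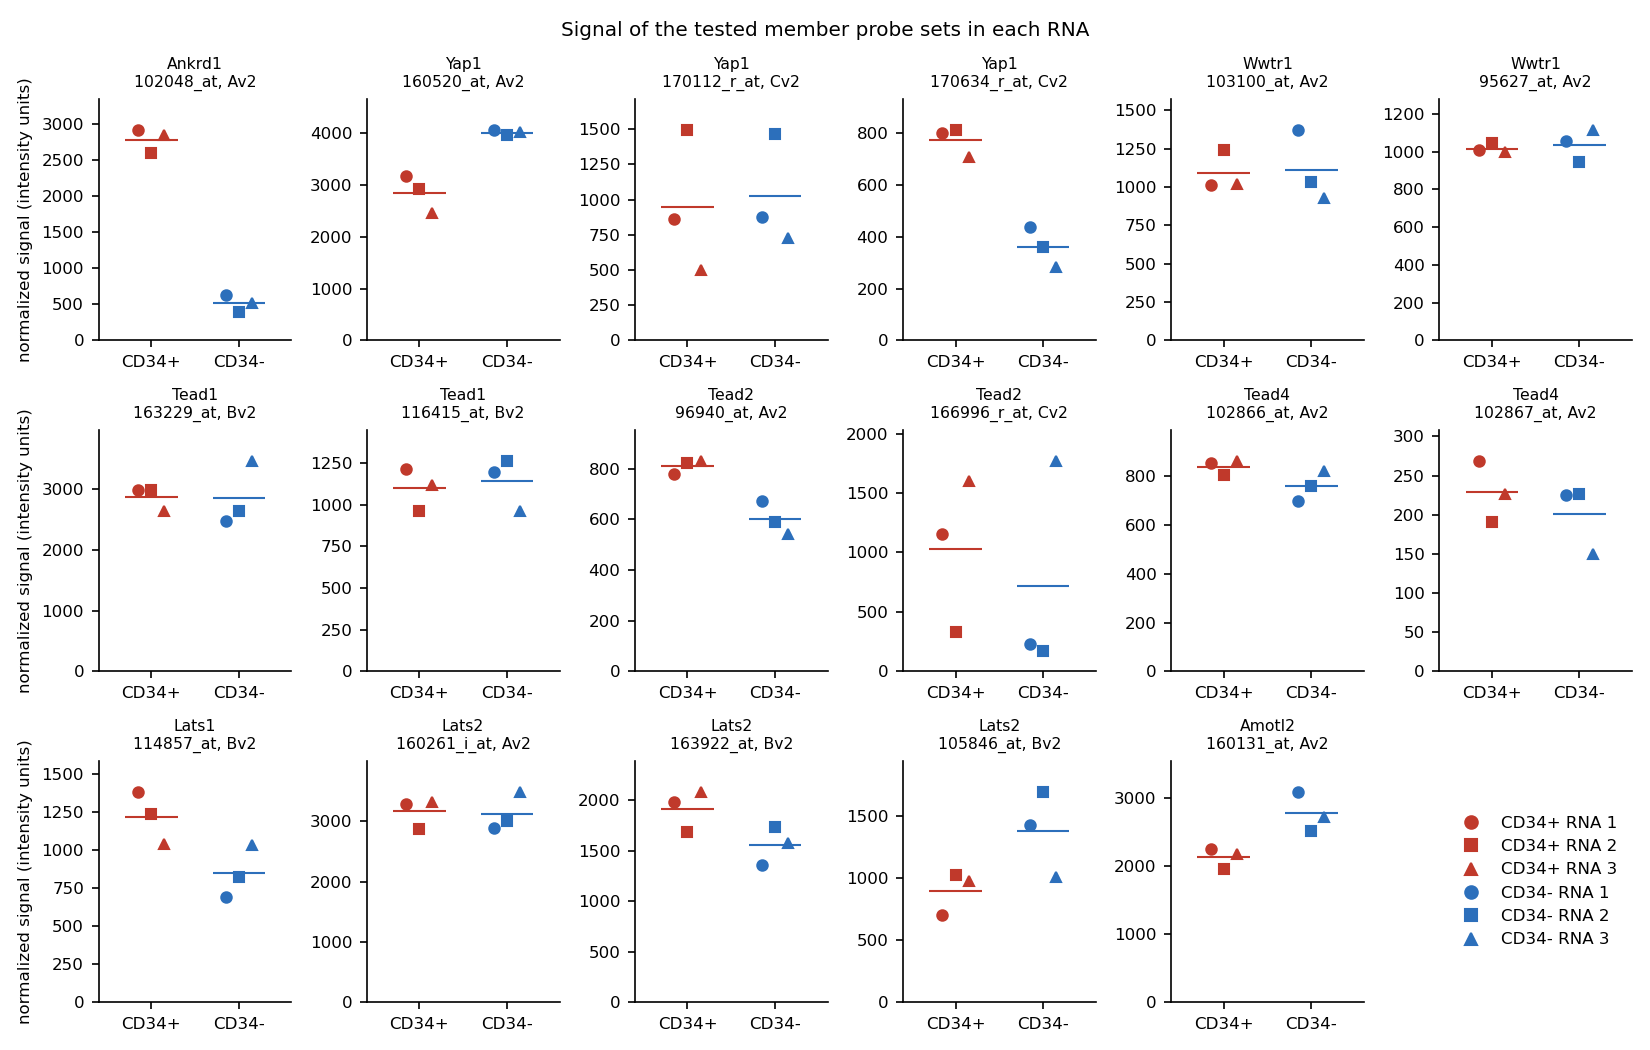
Normalized signal (linear axis from 0, intensity units) of the 17 tested member probe sets, 1 panel each, in the 3 CD34+ RNAs (red, left) and the 3 CD34- RNAs (blue, right), with a line at each group's mean. Ankrd1 shows the widest gap, with means of 2782 in CD34+ and 515.6 in CD34- RNAs, while both Wwtr1 panels overlap.

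Ankrd1, the transcriptional target and titin-associated member, was bright in all CD34+ RNAs. Probe set 102048_at, the only one for this gene, had signals of 2908, 2596 and 2841 in CD34+ RNAs, against 629.9, 396.7 and 520.3 in CD34- RNAs. The lowest CD34+ signal lay far above the highest CD34- signal. The means were 2782 ± 164 in CD34+ and 515.6 ± 117 in CD34- RNAs (SD, n = 3 each), a log2 difference of 2.34 (SE 0.16) or 5.06-fold. It was the 7th highest of 7634 tested probe sets on its chip type, and 0.157% of them had a larger absolute difference. Since the set was chosen by this difference, the rank is a description only. Within the fluidics stations, the instruments that washed and stained the arrays, the log2 difference was 2.37 on station 1 (1 RNA against 1) and 2.32 on station 2 (2 against 2).

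The letters bound by TEAD factors were looked for in the 250 bases before the start of each gene, because these letters are what joins YAP and TAZ to their targets. Sequences are from RefSeq, build GRCm38.p6, and 7 of the 9 members had an entry. GGAATG on either strand was present in 12.6% of 32851 promoters of this length, and at least 2 matches were present in 1.02%. The Ankrd1 promoter held 2 matches, 210 to 205 and 123 to 118 bases before the start. It is shown whole, 5′ to 3′ on the gene's strand (minus), with the matches in capitals.
Ankrd1, chr19:36119845-36120094: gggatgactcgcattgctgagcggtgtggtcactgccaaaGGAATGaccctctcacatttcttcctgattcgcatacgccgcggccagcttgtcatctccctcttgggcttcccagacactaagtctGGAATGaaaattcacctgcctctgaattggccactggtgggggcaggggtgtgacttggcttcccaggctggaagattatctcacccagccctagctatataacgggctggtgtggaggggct

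The promoters of Yap1, Wwtr1 and Amotl2 each held 1 match as well, and those of Tead2, Lats1 and Lats2 held none in this window. The stretches of 30 bases around them are shown with a stretch of Ccn1, a target gene named above, so that the letters can be compared with those of Ankrd1. Of 12 other target genes with a promoter entry, 4 held a match (Axl, Ccn1, Crim1 and Ptpn14), and Gadd45a was among those without. Each stretch is read on its gene's strand, minus for all but Amotl2, and capitals mark GGAATG or its reverse complement CATTCC.
Yap1, chr9:8004720-8004749: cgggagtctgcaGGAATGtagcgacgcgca
Wwtr1, chr3:57576029-57576058: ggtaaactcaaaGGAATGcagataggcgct
Amotl2, chr9:102717727-102717756: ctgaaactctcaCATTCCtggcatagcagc
Ccn1, chr3:145650071-145650100: cgcgccaaccaaCATTCCtgagatgtttga
A match describes the letters only. Genes with a match lay on both sides of the comparison: Ankrd1 was higher in CD34+ RNAs, Amotl2 and Yap1 160520_at were lower, and Wwtr1 overlapped. The letters TGANTCA of AP-1 factors, present in 6.75% of promoters, occurred in none of the members' windows.

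The co-activator Yap1 was read by 4 probe sets that did not give 1 direction. Probe set 160520_at had signals of 3177, 2927 and 2449 in CD34+ RNAs and 4051, 3958 and 4014 in CD34- RNAs. All 3 CD34+ signals lay below all 3 CD34- signals, with means of 2851 ± 370 in CD34+ and 4008 ± 46.9 in CD34- RNAs (SD, n = 3 each), a log2 difference of -0.49 (SE 0.11). Without CD34- RNA 1 the difference was -0.48 and no longer past the threshold. On MG_U74Cv2, 170634_r_at ran the other way, with 800.9, 811.1 and 710.3 in CD34+ RNAs and 438.8, 361.5 and 283.4 in CD34- RNAs (log2 difference 0.94, SE 0.29), again with no overlap. The suffix r marks probe sets for which some design rules were dropped. The third, 170112_r_at, spread widely in both groups, from 497.1 to 1491 in CD34+ RNAs and from 726.1 to 1466 in CD34- RNAs (log2 difference -0.16, SE 0.40). The fourth, 161308_f_at, was dim and not tested.

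Wwtr1, which encodes TAZ, was at like signal in both groups by both of its probe sets. Probe set 95627_at had 1007, 1046 and 997.4 in CD34+ RNAs and 1055, 945.4 and 1113 in CD34- RNAs, a log2 difference of -0.03 (SE 0.12). Probe set 103100_at had 1012, 1239 and 1016 in CD34+ RNAs and 1368, 1030 and 925.7 in CD34- RNAs, a log2 difference of -0.01 (SE 0.16). The signals overlapped in both cases, and the SEs leave room for modest changes in either direction.

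Among the TEAD factors, which carry YAP and TAZ to DNA, Tead2 had the 1 tested probe set whose groups parted. This probe set, 96940_at, had 780.3, 821.1 and 828.3 in CD34+ RNAs, against 672.9, 590.6 and 541.6 in CD34- RNAs. No CD34+ signal reached down to the CD34- signals, with means of 809.9 ± 25.9 in CD34+ and 601.7 ± 66.4 in CD34- RNAs (SD, n = 3 each) and a log2 difference of 0.40 (SE 0.13), not past the threshold. The second Tead2 probe set, 166996_r_at, had 1154, 328.4 and 1597 in CD34+ RNAs and 226.8, 169.2 and 1766 in CD34- RNAs, so that 1 CD34- RNA was the brightest of all. Its log2 difference of 0.83 had an SE of 0.77.

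Tead1 overlapped in both tested probe sets. Probe set 163229_at had 2978, 2985 and 2632 in CD34+ RNAs and 2466, 2641 and 3450 in CD34- RNAs (log2 difference 0.02, SE 0.15), and 116415_at had a log2 difference of -0.05 (SE 0.17). Tead4 lay slightly higher in CD34+ RNAs, within the overlap of the groups. Its probe set 102866_at had 853.2, 803.1 and 859.8 in CD34+ RNAs and 699.7, 758.8 and 819.4 in CD34- RNAs (log2 difference 0.14, SE 0.12), and 102867_at had a log2 difference of 0.16 (SE 0.23).

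Of the kinases, Lats1 had 1381, 1241 and 1042 in CD34+ RNAs and 695.3, 825.3 and 1032 in CD34- RNAs by 114857_at. The groups did not overlap but nearly met, at 1042 in CD34+ RNA 3 and 1032 in CD34- RNA 3. The means were 1221 ± 171 in CD34+ and 851 ± 170 in CD34- RNAs (SD, n = 3 each), a log2 difference of 0.48 (SE 0.19), not past the threshold. Lats2, both a kinase of the cascade and a target of YAP, was read by 3 probe sets whose differences had no common sign. They were 0.02 (SE 0.11) for 160261_i_at, 0.29 (SE 0.15) for 163922_at and -0.55 (SE 0.22) for 105846_at, and the groups overlapped in each. The last had 700, 1026 and 972.2 in CD34+ RNAs against 1429, 1688 and 1010 in CD34- RNAs.

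Amotl2, the junction protein and feedback target, was lower in the CD34+ RNAs. Its probe set 160131_at had 2256, 1956 and 2179 in CD34+ RNAs, against 3082, 2514 and 2727 in CD34- RNAs. The groups did not overlap, with means of 2130 ± 156 in CD34+ and 2774 ± 287 in CD34- RNAs (SD, n = 3 each) and a log2 difference of -0.37 (SE 0.11), not past the threshold. Without CD34- RNA 2 the difference was -0.44 and past it. Ankrd1 and Amotl2, both known targets of YAP, thus differed in opposite directions between the same RNAs.

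**Figure D2:**
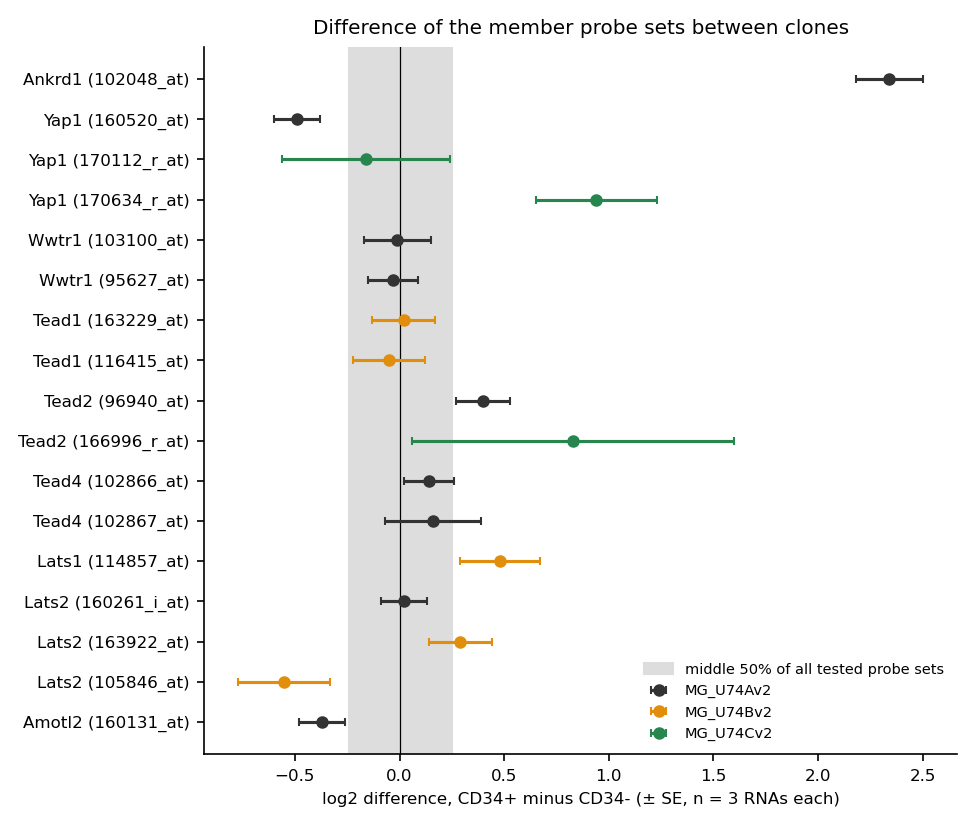
Log2 difference (CD34+ minus CD34-, horizontal axis) with its SE for the 17 tested member probe sets, coloured by chip type, over a grey band that holds the middle 50% of all tested probe sets. Ankrd1 stands at 2.34, and the other 16 lie between -0.55 and 0.94.

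On MG_U74Av2, the RNA quality readings also differed between the groups. The ratio of the 3′ to the 5′ Gapdh probe set was 0.7 to 0.771 in CD34+ RNAs and 0.802 to 0.832 in CD34- RNAs, and that of actin 1.03 to 1.09 in CD34+ and 1.1 to 1.2 in CD34- RNAs. On MG_U74Cv2 the actin ratio was 0.951 to 1.02 in CD34+ RNAs and 1.03 in all CD34- RNAs, while the other ratios of MG_U74Bv2 and MG_U74Cv2 overlapped. RNA concentrations also parted, at 0.573, 0.421 and 0.721 µg/µl in CD34+ RNAs and 0.989, 1.38 and 1.01 µg/µl in CD34- RNAs. The volumes listed with them were 26.1, 35.6 and 20.8 µl in CD34+ and 15.1, 10.8 and 14.8 µl in CD34- RNAs. The part of these readings in the members' differences was not tested. On MG_U74Bv2 and MG_U74Cv2, all 3 CD34+ RNAs and CD34- RNA 1 were on station 1 and the other CD34- RNAs on station 2. Within station 1 (3 RNAs against 1) the log2 difference was 0.72 for Lats1, 0.70 for Yap1 170634_r_at and 1.57 for Tead2 166996_r_at. On MG_U74Av2 the differences of Yap1 160520_at were -0.33 on station 1 and -0.57 on station 2, those of Tead2 96940_at 0.49 and 0.36, and those of Amotl2 -0.27 and -0.42.

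Other target genes of YAP, TAZ and TEAD were taken from a published target signature without the members. Of 19 genes, 18 were on the arrays and 23 probe sets of 14 genes were tested. None of these was called higher by limma and 3 were called lower, with 1 higher and 6 lower at an unadjusted p under 0.05. All 3 lay on MG_U74Av2, where 11 were tested and 6.69% of all tested probe sets were called lower. The median log2 difference of the 23 was -0.15. Gadd45a, which halts the cell cycle after DNA damage, fell to 992.1, 1144 and 1150 in CD34+ RNAs, against 3594, 3062 and 2677 in CD34- RNAs (log2 difference -1.46, SE 0.13, limma adjusted p = 0.00022).

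Ccdc80, a secreted matrix protein, fell by its probe set 160298_at, with 640.1, 645.7 and 590.6 in CD34+ RNAs and 1249, 1030 and 1292 in CD34- RNAs (log2 difference -0.87, SE 0.13, limma adjusted p = 0.00288). Its second probe set, 170373_at, overlapped (log2 difference -0.25, limma adjusted p = 0.885). Asap1, a regulator of ARF GTPases and focal adhesions, fell less, with 2551, 2389 and 2829 for 100513_at in CD34+ RNAs and 3181, 3629 and 3497 in CD34- RNAs (log2 difference -0.40, SE 0.10, limma adjusted p = 0.0305). That call was lost without CD34+ RNA 1, CD34+ RNA 2, CD34- RNA 2 or CD34- RNA 3, with limma adjusted p of 0.0892, 0.124, 0.0842 and 0.0566. It was also lost with fluidics station as a block (0.0531), the replicate block (0.0545), scaling to a common median (0.0731) and no intensity trend (0.0736). The second Asap1 probe set, 161139_f_at, overlapped (log2 difference -0.15, limma adjusted p = 0.624). The matricellular genes Ccn1 and Ccn2 are widely used readouts of YAP activity, and neither was past the threshold. Ccn1 had 3919, 3105 and 3919 in CD34+ RNAs and 3356, 3217 and 4431 in CD34- RNAs (log2 difference 0.00, SE 0.14, limma adjusted p = 0.995). Ccn2 had 10140, 10530 and 11310 in CD34+ RNAs and 11890, 12220 and 13160 in CD34- RNAs, without overlap but not past the threshold (log2 difference -0.22, SE 0.07, limma adjusted p = 0.0827).

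The list of regulators upstream of YAP and TAZ ran from cadherins and polarity proteins to the kinases and their scaffolds. It also held Tead3, which was not tested, and the TEAD cofactors Vgll3 and Vgll4. Ptpn14 stood both in this list and in that of the target genes. The upstream list gave 65 tested probe sets of 31 genes out of 40 listed. By limma 1 was called higher and 0 lower, with 8 higher and 3 lower at an unadjusted p under 0.05. On MG_U74Av2 that was 1 of 21, where 8.21% of all tested probe sets were called higher, and the median of the 65 was 0.02. Strn3, a scaffold of the phosphatase complex that acts against the Hippo kinases, rose to 1248, 1365 and 1384 for 100878_at in CD34+ RNAs, against 773.2, 759.4 and 952.4 in CD34- RNAs (log2 difference 0.66, SE 0.13, limma adjusted p = 0.00931). Its second probe set, 162577_at, had 4473, 4638 and 6546 in CD34+ RNAs and 3094, 2758 and 2977 in CD34- RNAs (log2 difference 0.78, limma adjusted p = 0.054). The core kinase gene Stk4 had log2 differences of -0.06 and 0.11 on MG_U74Bv2, and the adaptor Sav1 had -0.10 and 0.14 there. The polarity gene Scrib, at 0.57 for 107046_at, and the TEAD cofactor Vgll3, at -0.64 for 110437_at, were without overlap but not past the threshold (limma adjusted p = 0.0744 and 0.125). Second probe sets overlapped, at 0.03 for Scrib 164352_f_at and -0.44 for Vgll3 164092_at.

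**Figure D3:**
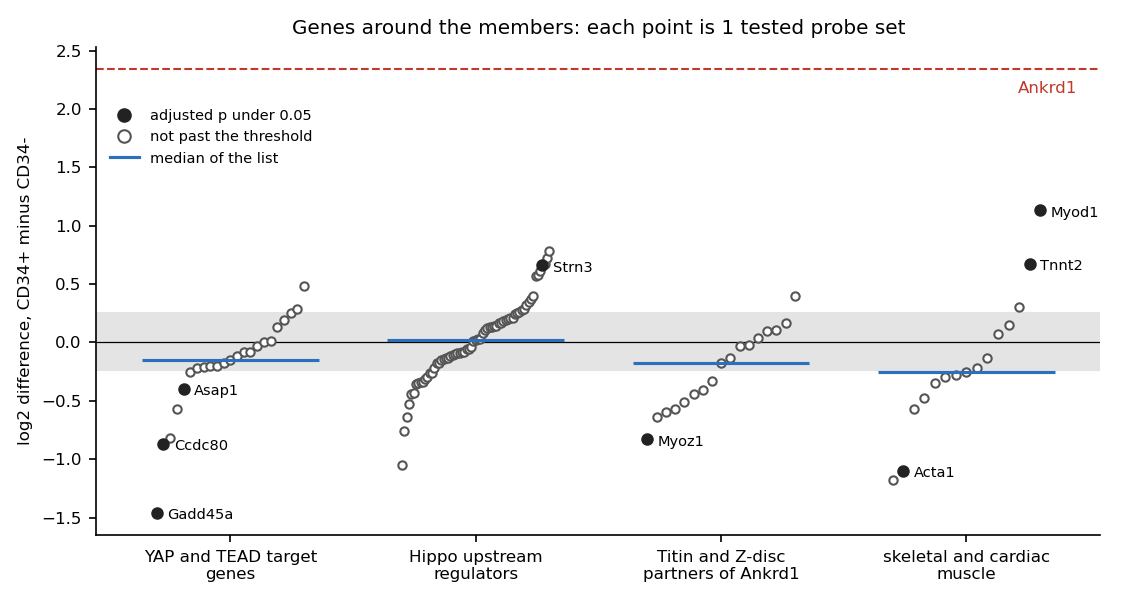
Log2 difference (CD34+ minus CD34-, vertical axis) of every tested probe set in 4 gene lists around the members, filled where the limma adjusted p was under 0.05, with each list's median in blue, the middle 50% of all tested probe sets in grey and Ankrd1 as a dashed line at 2.34. No tested probe set of the 4 lists reached Ankrd1, whose difference chose the set, the highest being Myod1 at 1.13.

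The genes whose proteins share titin or the sarcomeric Z-disc with the Ankrd1 protein were tested next, and none was called higher. All 18 listed genes were on the arrays, and 17 probe sets of 14 genes were tested. By limma 0 were called higher and 1 lower, with 0 higher and 5 lower at an unadjusted p under 0.05, and the median was -0.18. On MG_U74Av2 the call was 1 of 7, where 6.69% of all tested probe sets were called lower, and the other 10 tested probe sets lay on chip types where 1.09% and 0.0936% were called. Myoz1, a calcineurin-binding protein of the Z-disc, had 273.3, 319.2 and 264.6 in CD34+ RNAs and 785.2, 541.1 and 384.2 in CD34- RNAs (log2 difference -0.83, SE 0.23, limma adjusted p = 0.0425). The call was lost when CD34+ RNA 1, 2 or 3 or CD34- RNA 1 or 2 was left out, with limma adjusted p of 0.107, 0.0814, 0.122, 0.127 and 0.0886. The other muscle ankyrin repeat genes, Ankrd2 and Ankrd23, overlapped, with log2 differences of 0.10 and -0.13. Fhl2, a LIM-domain cofactor, had 0.17, and Ybx1, a known binding partner of the Ankrd1 protein, had 0.11, neither past the threshold. Palld, which bundles actin, was lower without overlap in all 3 of its probe sets (-0.60, -0.64 and -0.51), none past the threshold.

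Because Ankrd1 is best known from muscle, muscle markers were read beside it. Of 15 tested probe sets, 2 were called higher and 1 lower, with 2 higher and 4 lower at an unadjusted p under 0.05 and a median of -0.25. The calls were among 11 tested on MG_U74Av2, where 8.21% of all tested probe sets were called higher and 6.69% lower. Myod1, the skeletal muscle determination factor, rose to 973.8, 1121 and 1167 in CD34+ RNAs, against 419.4, 654.6 and 371.7 in CD34- RNAs (log2 difference 1.13, SE 0.20, limma adjusted p = 0.00536). Tnnt2, cardiac troponin T, rose to 642.1, 588.3 and 552.9 in CD34+ RNAs, against 364.5, 337.1 and 360.8 in CD34- RNAs (log2 difference 0.67, limma adjusted p = 0.0129). The Tnnt2 call was lost without CD34+ RNA 1 or CD34+ RNA 2, at limma adjusted p of 0.0587 and 0.0558. Acta1, skeletal actin, fell to 329.8, 334 and 273.3 in CD34+ RNAs, against 601.5, 846.8 and 750.6 in CD34- RNAs (log2 difference -1.10, limma adjusted p = 0.00299). The myosin heavy chains Myh1, Myh3, Myh6 and Myh7 were too dim to be tested, as were Myf5, Nkx2-5 and Tnni3. The summed signal of the muscle list on MG_U74Av2 was 11770 to 13480 in CD34+ RNAs and 13850 to 15300 in CD34- RNAs.

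The contractile genes of smooth muscle, many of which answer to serum response factor and tension, include several that fell. Of 14 tested probe sets, 0 were called higher by limma and 5 lower, with 1 higher and 6 lower at an unadjusted p under 0.05. All 5 were among the 6 tested on MG_U74Av2, where 6.69% of all tested probe sets were called lower. Tagln, an actin-binding protein, fell to 4219, 4041 and 4737 in CD34+ RNAs, against 10190, 11540 and 10910 in CD34- RNAs (log2 difference -1.32, limma adjusted p = 6.67e-05). Cnn1 (calponin) fell by 1.22 and Acta2 (smooth muscle actin) by 0.44 on the log2 scale, Actg2 by 0.53 through a probe set of a gene family, and Mylk by 0.41. The Acta2 call was lost with scaling to a common median, to a common trimmed mean and with no intensity trend (limma adjusted p = 0.105, 0.0589 and 0.0746), and the Mylk call with the first and the last (0.0528 and 0.0588). Some other probe sets of these genes overlapped, with log2 differences of -0.20 for Acta2 135098_at, 0.15 for Actg2 164509_i_at and -0.06 for Mylk 107991_at. Mylk 107992_g_at was lower without overlap but not past the threshold (-0.41, limma adjusted p = 0.245). Cald1 112386_at, of the same list, was higher without overlap, also not past the threshold (0.35, limma adjusted p = 0.213). Cald1 109059_at and 112831_at overlapped, at 0.16 and -0.03. The summed signal of this list on MG_U74Av2 was 40440 to 42260 in CD34+ RNAs and 59260 to 66960 in CD34- RNAs. On MG_U74Bv2 the sum overlapped, at 38950 to 41790 in CD34+ and 31360 to 43330 in CD34- RNAs. The summed signal of the stromal surface list on MG_U74Av2 was 32900 to 35060 in CD34+ RNAs and 46660 to 52870 in CD34- RNAs. Of its 23 tested probe sets, 1 was called higher (Cd44, log2 difference 0.50) and 7 lower (3 of Cxcl12, 2 of Itgb1, and Pdgfra and Eng). These were among 15 tested on MG_U74Av2, where 14.9% of all tested probe sets were called. The 6 on MG_U74Bv2 had a median of 0.35 with none called (limma, 3 at an unadjusted p under 0.05). The list's sum on MG_U74Bv2 went the other way, at 18840 to 20330 in CD34+ and 14530 to 18120 in CD34- RNAs. Further tested probe sets of Pdgfra (160332_at, log2 difference -0.46) and Itgb1 (141172_at, -0.54) overlapped (limma adjusted p = 0.664 and 0.845). Eng 116170_at was lower without overlap but not past the threshold (-0.76, limma adjusted p = 0.0986). The Cd44 call was lost without CD34+ RNA 1, 2 or 3 or CD34- RNA 1 or 2 (limma adjusted p = 0.109, 0.112, 0.0581, 0.111 and 0.0539), and that of Eng without CD34+ RNA 1 or 2 or CD34- RNA 1 (0.0696, 0.0971 and 0.0873). Itgb1 100123_f_at was no longer past the threshold without CD34+ RNA 3 (limma adjusted p = 0.0647), nor Mylk without CD34+ RNA 2 (0.0764). The Cd44 call was also lost with the replicate block and with no intensity trend (limma adjusted p = 0.0603 and 0.06). Scaling to a common median and no intensity trend lost the calls of Eng (limma adjusted p = 0.0751 and 0.0768) and Itgb1 100123_f_at (0.0798 and 0.0803). The part of these shifts in the members' differences was not tested. Of 2 tested endothelial probe sets none was called by limma, with 1 at an unadjusted p under 0.05. That was Pecam1 97830_at, lower in CD34+ RNAs without overlap (log2 difference -0.89, limma adjusted p = 0.0854). The summed signal of the endothelial list on MG_U74Av2 was 418 to 576.6 in CD34+ RNAs and 620.7 to 800 in CD34- RNAs. On MG_U74Bv2 and MG_U74Cv2 the sums overlapped.

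The probe sets whose pattern over the 6 RNAs was most like that of Ankrd1 were named by Pearson correlation of log2 signal with 744 tested probe sets of MG_U74Av2 that have 1 gene symbol and a log2 SD of at least 0.5. The order was Ect2, which acts in cell division (0.9968), Cd34 by 160358_at (0.9961), the secreted semaphorins Sema3e (0.9929) and Sema3c (0.9923), and Slk, a Ste20-like kinase (0.9922). These values share their arrays and mostly restate the gap between the groups. With each group's mean removed they were 0.938 for Ect2, 0.993 for Cd34 160358_at, 0.643 for Sema3e, 0.765 for Sema3c and 0.756 for Slk. The other Cd34 probe set, 97773_at, did not follow Ankrd1 within the CD34- RNAs, with 85.28, 202.2 and 105.3. It was highest in CD34- RNA 2, where Ankrd1 and 160358_at were lowest. Ect2 averaged 2487 ± 36.6 in CD34+ RNAs and 1024 ± 164 in CD34- RNAs, and Slk 737.2 ± 77.5 in CD34+ and 288.7 ± 33.9 in CD34- RNAs (SD, n = 3 each). Among the members on the same chip type, the correlation with Ankrd1 ran from -0.898 for Yap1 160520_at to 0.933 for Tead2. With the group means removed, these were 0.081 for Yap1 160520_at and 0.438 for Tead2. Amotl2 stood at -0.794 over the 6 RNAs and at 0.921 with the group means removed, a reading of 6 points that share their arrays.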

How the data were processed

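RNA of 3 CD34+ and 3 CD34- clone samples was read on 3 Affymetrix chip types. The authors deposited linear intensities, 1 for each probe set of an array, from MAS5 per the submitters' processing notes; its settings are not given in the sources. The CD34+ arrays of a chip type shared 1 level, and the CD34- arrays lay far lower at unequal levels: CD34+ over CD34- median intensities gave ratios from 13.4 to 20.6 on MG_U74Av2, while MG_U74Bv2 had 44.3 to 54.7 and MG_U74Cv2 had 94.2 to 122. Each chip type was therefore quantile normalized, and the 20th percentile of its values (51.5, 106 and 97.9) was added before log2. A fold change on this scale understates the change of dim probe sets. A common shift of all RNAs of a group cannot be seen after such scaling. Arrays have no read depth, and their number limits the precision.

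Separate fits per chip type used limma 3.58.1 in R 4.3.3 (lmFit, eBayes with an intensity trend), with two-sided p-values adjusted by the Benjamini-Hochberg method over 7634, 7737 and 7481 tested probe sets. Control probe sets (66 per chip type) were dropped. The fit was tested on simulated data. Gene symbols are those of GEO's platform annotation, and a probe set with several or none was not named. All members were named, with Cd34, up to 4 called genes of each list by largest absolute difference (all where 5 or fewer were called) and the 5 probe sets most like Ankrd1. Further genes of the lists were picked after their values were seen. The members and lists were chosen with earlier results of these data known. Same-numbered RNAs did not deviate together (correlation -0.049 to 0.07) and share only a number. Alternatives covered scaling, offset, filter, trend, fluidics station, replicate block and leaving out each RNA.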

Additional observations from a re-analysis of the deposited data

How the results depend on the processing

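Apart from the unscaled intensities, the log2 difference of Ankrd1, which chose the set, ran from 2.11 to 2.48 over 16 alternatives as a description, that of Yap1 160520_at between -0.57 and -0.39, and that of Amotl2 between -0.44 and -0.29. Strn3, Gadd45a, Ccdc80, Myod1 and Acta1 kept their calls in those 16. With the replicate block, 956 probe sets of MG_U74Av2 were called against 1138, and the members called stayed 1 higher and 1 lower. The count of lower members was 2 with cyclic loess and with the filter at the 60th percentile (Amotl2 added), and 0 with no intensity trend. The filter at the 60th percentile gave 2 higher upstream regulators. The count of lower titin and Z-disc partners was 0 with no filter, with the filter at the 60th percentile and with no intensity trend. Leaving out 1 RNA moved the count of lower members between 0 and 2, and that of the titin list between 0 and 2. The cause was not tested. Calls on MG_U74Av2 were 698, 623, 720 and 722 without CD34+ RNA 1, 2 or 3 or CD34- RNA 1, and ran up to 1235. Those on MG_U74Bv2 were 0, 3, 2 and 2 without the same RNAs and 53 without CD34- RNA 3, against 84, and those on MG_U74Cv2 were 0 or 1 without any 1 RNA, against 7. With fluidics station as a block, MG_U74Bv2 kept 1 call.

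Without any scaling, the lower deposited level of the CD34- arrays shifted the median log2 difference by 3.7, 5.22 and 6.3 on the 3 chip types, and nearly every probe set was called higher: 17 members with 0 lower, 65 upstream regulators, 23 target genes with 0 lower, and 17 titin and Z-disc partners with 0 lower. Differences that were negative then read 3.47 and 6.22 for Yap1, 3.82 and 3.8 for Wwtr1, 5.29 for Tead1, 4.78 for Lats2, 3.55 for Amotl2, 2.46 for Gadd45a, 2.93 for Ccdc80, 3.54 for Asap1, 2.73 for Myoz1, 2.28 for Cxcl12, 2.62 for Pdgfra, 3.52 for Itgb1, 3.55 for Eng, 2.55 for Acta1, 2.59 for Tagln, 2.73 for Cnn1, 3.4 for Actg2, 3.56 for Acta2 and 3.58 for Mylk.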
